A study of Mus musculus with 6 samples.

Results

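The MYC, MAX and MXD network comprises 10 genes here: Myc, Mycn, Mycl, Max, Mxd1, Mxd3, Mxd4, Mxi1, Mnt and Mlx. They were taken by gene symbol, as 10 of the 53458 genes to which the transcripts of the files could be assigned, and all 10 were among the 22170 genes with enough reads to test. MYC, MYCN and MYCL are basic helix-loop-helix leucine zipper proteins that pair with MAX, bind the E-box CACGTG and raise the transcription of genes for ribosome biogenesis, nucleotide synthesis and metabolism. The MXD proteins (MXD1, MXD3, MXD4 and MXI1) and MNT pair with MAX as well and bind the same E-box, where they recruit the SIN3 co-repressor. MLX is a relative of MAX that pairs with some MXD proteins, MNT and the glucose-sensing factors MLXIP and MLXIPL. In the bone marrow, Myc is a gene of proliferating progenitors, whereas Mxd1 is known for its rise as granulocytes mature.

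RNA was sequenced from leukemic blasts of 6 mice with acute myeloid leukemia, 3 of the genotype Cebpa-/p30 Tet2+/+ (mice 19, 23 and 24) and 3 of the genotype Cebpa-/p30 Tet2-/- (mice 5, 7 and 8). Both groups lack the full-length CEBPA protein and keep only the shorter p30 form from a single allele, and by design the groups differ in Tet2, the gene of an enzyme that oxidizes methylated cytosine. In the study's model, bone marrow cells of C57BL/6 donors (C57BL/6J in the study's methods) with floxed alleles and the interferon-inducible Mx1-Cre were transplanted into lethally irradiated C57BL/6J.SJL recipients, Cre was induced with Poly(I)-Poly(C), and live CD45.2+ cells negative for CD3, B220 and Ter119 were later sorted from the marrow of moribund animals. Each library is a separate leukemia, and the ages of the mice are not given in the labels. The study reports a shorter latency for the Tet2-/- leukemias, so that time to sampling may differ between the genotypes, and its part in the results was not tested. Mx1-Cre acts in cells that respond to interferon rather than in blasts alone, and the Cebpa deletion is shared by the controls.

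The libraries held 13036643 to 32855343 assigned reads, the fewest in mouse 24 and the most in mouse 5. Over the whole gene, Tet2 was not lower in the Tet2-/- mice, at 73.6, 79.5 and 98.4 CPM (counts scaled to library size) in mice 19, 23 and 24 against 111, 79.4 and 96.7 in mice 5, 7 and 8. From here on values follow the same order of mice within each genotype. A count over the whole gene is no check of a floxed allele, because the files do not say which exons were removed. Of 9 myeloid blast genes, 1 (Cd34) was lower at an unadjusted p under 0.05 and none passed the adjusted threshold. The 10 mature neutrophil genes summed to 58704, 11655 and 42878 CPM in the Tet2+/+ mice and to 66123, 122121 and 25868 CPM in the Tet2-/- mice. Mouse 7 stood highest and mouse 23 lowest, the genotypes overlapped, all 10 estimates were higher in Tet2-/- mice with none called, and none of the 10 genes fell under 1099 reads in any mouse. Of the other marker lists, 2 had sums that did not overlap between genotypes. The basophil and mast cell genes summed to 287 to 374 CPM in the Tet2+/+ mice and to 26.6 to 110 CPM in the Tet2-/- mice, and the plasma cell genes to 144 to 204 CPM and to 32.3 to 62.0 CPM, with none called by edgeR and 1 and 2 genes called lower by DESeq2, and the part of both in the results was not tested. In bulk RNA, fewer cells of a type and less RNA per cell cannot be told apart.

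Annotated transcripts of 3 members differ in ways that matter below, and their coding sequences are given from GENCODE M21 (build GRCm38), 5′ to 3′. Myc carries 2 start codons, in capitals: an upstream CTG, and 45 bases further on the ATG from which the shorter protein starts. The stretch runs over an exon junction, from chr15:61985922-61985951 to chr15:61987507-61987536 on the plus strand.
Myc-201: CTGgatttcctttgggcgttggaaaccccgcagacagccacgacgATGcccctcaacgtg
Max-201 and Max-202, 2 of the annotated coding forms of Max, differ by an exon of 27 bases at chr12:76961263-76961289 on the minus strand, in capitals. It lengthens the coding sequence from 453 to 480 bases just ahead of the DNA-binding region. Max-205 is annotated as coding as well and is not shown.
Max-201: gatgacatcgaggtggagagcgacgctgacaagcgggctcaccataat
Max-202: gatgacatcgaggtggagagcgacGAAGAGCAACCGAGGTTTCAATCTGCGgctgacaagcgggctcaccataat

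The MXD genes start with the coding sequence of the SIN3-binding helix, which makes these proteins repressors. Mxi1 has 3 annotated coding starts. The coding sequence of Mxi1-202 equals that of Mxi1-203 without its first 108 bases, and that of Mxi1-201 opens with 274 bases of its own. Capitals mark the 18 bases of Mxi1-203 with most matches in the other MXD genes. Of these 18 bases, 15 matched in Mxd1, 16 in Mxd3 and 15 in Mxd4. Over the whole coding sequence the best match was 12 of 18 for Mxi1-202, for Mxi1-201 and also for Mnt, so that a low match in these letters does not show that a protein lacks the helix. Mxi1-203 starts at chr19:53329648-53329707, Mxi1-202 at chr19:53331386-53331445 and Mxi1-201, from a separate first exon, at chr19:53310700-53310759, all on the plus strand.
Mxi1-203: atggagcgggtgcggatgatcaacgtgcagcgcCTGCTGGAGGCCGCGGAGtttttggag
Mxd1-201: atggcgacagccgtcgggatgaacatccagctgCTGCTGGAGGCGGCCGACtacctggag
Mxd3-201: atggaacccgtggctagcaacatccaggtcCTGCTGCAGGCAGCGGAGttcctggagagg
Mxd4-201: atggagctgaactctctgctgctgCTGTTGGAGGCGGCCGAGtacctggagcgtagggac
Mxi1-202: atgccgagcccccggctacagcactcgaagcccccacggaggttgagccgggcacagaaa
Mxi1-201: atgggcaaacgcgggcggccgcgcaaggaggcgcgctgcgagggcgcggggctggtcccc

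None of the 10 members was called at an adjusted p under 0.05 by edgeR's quasi-likelihood test, where 10 genes of all 22170 were called lower (0.0451%) and 0 higher. At an unadjusted p under 0.05, Mlx was the only member of the 10, against 8.11% of all genes tested, when 5.12% were lower and 3% higher. DESeq2 called 0 members, beside 2.16% of all genes, and had 3 at an unadjusted p under 0.05 (Mycl, Mxd3 and Mlx), beside 8.52%. The members' estimates were lower for 6 genes and higher for 4, with a median log2 fold change of -0.05 beside 0.00 for all genes. With 3 mice a group the precision was limited, and on simulated counts the same test found 63% of genes changed by 2 on the log2 scale and 8% of those changed by 1.

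**Figure D1:**
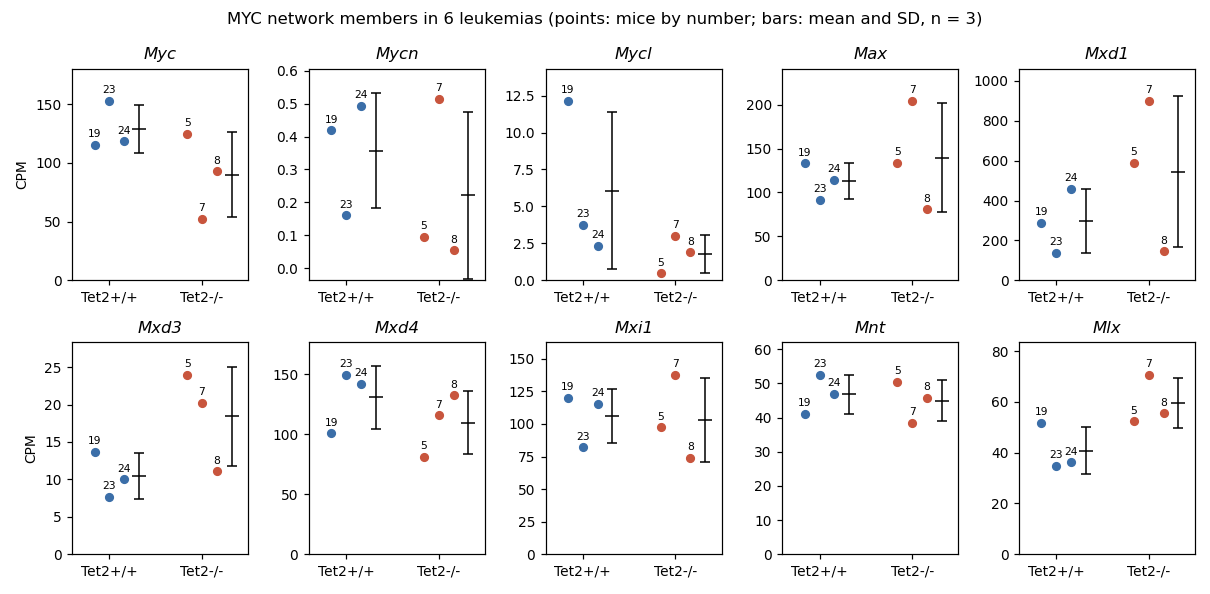
CPM of the 10 members in each mouse (blue, Cebpa-/p30 Tet2+/+; red, Cebpa-/p30 Tet2-/-; numbers name the mice), with the mean and SD of 3 mice as black bars on linear axes. The genotypes overlap in every panel but that of Mlx, and mouse 7 is the highest for Max, Mxd1, Mxi1 and Mlx and the lowest for Myc and Mnt. It is also the highest for Mycn, but with 8 reads beside 7 in mice 19 and 24.

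Myc was the main gene of its family in these blasts and its level was lower on average without TET2, by an amount within the spread of the mice. Its level was 116, 153 and 118 CPM in the Tet2+/+ mice and 125, 52.1 and 92.8 CPM in the Tet2-/- mice. Mouse 7 had the least Myc, mouse 5 lay inside the Tet2+/+ range, and the genotypes overlapped. The log2 fold change was -0.52 ± 0.32 (SE, n = 3 per genotype, 95% interval -1.26 to 0.23, edgeR's adjusted p = 0.722). The estimate depended on single mice of the Tet2-/- group. It was -0.24 without mouse 7 and -0.84 without mouse 5, and edgeR's adjusted p was no lower than 0.607 with any 1 mouse left out.

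The other MYC genes were scarce. Mycn, best known from neural tissue and stem cells, had 7, 3 and 7 reads in the Tet2+/+ mice and 3, 8 and 1 reads in the Tet2-/- mice, close to the limit of detection in every library. Mycl, a MYC relative of dendritic and other cells, was at 12.1, 3.75 and 2.32 CPM in the Tet2+/+ mice and at 0.475, 3.02 and 1.90 CPM in the Tet2-/- mice. Mouse 19 stood out from the other mice, and the Mycl estimate of -1.77 ± 0.84 (SE, n = 3 per genotype, edgeR's adjusted p = 0.647) was -0.78 without it. The erythroid genes stood out in the same mouse, at a sum of 137 CPM beside 4.15 to 15.6 CPM in the other mice, and their part in the Mycl values was not tested. Myc held 93.2% to 99.7% of the summed level of the 3 genes per kb of coding transcript. Pvt1, the long non-coding RNA next to Myc, was at 4.07, 2.68 and 1.90 CPM in the Tet2+/+ mice and at 5.69, 1.16 and 6.29 CPM in the Tet2-/- mice. Its level was lowest in mouse 7, as that of Myc was, but highest in mouse 8, where Myc was next to lowest.

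Max, the shared partner, was at 133, 91.4 and 114 CPM in the Tet2+/+ mice and at 134, 204 and 80.6 CPM in the Tet2-/- mice. The Tet2-/- mice held both the highest and the lowest value, and the log2 fold change of 0.31 ± 0.34 (SE, n = 3 per genotype, edgeR's adjusted p = 0.857) turned to -0.07 without mouse 7. The form without the extra exon, Max-201, had 962 to 2366 reads a library, and the form with it, Max-202, had 377 to 1463 reads, so that both of the sequences printed above were expressed. Neither was called in the test over transcripts (log2 fold changes 0.18 ± 0.30 and 0.40 ± 0.46, SE, edgeR's adjusted p = 0.996 and 0.986).

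Among the repressors, Mxd1 had the largest spread. It was at 288, 139 and 460.0 CPM in the Tet2+/+ mice and at 588, 900.0 and 145 CPM in the Tet2-/- mice. The highest and the next highest value were both in Tet2-/- mice, but mouse 8 lay near the bottom beside mouse 23. The log2 fold change was 0.88 ± 0.67 (SE, n = 3 per genotype, 95% interval -0.71 to 2.47, edgeR's adjusted p = 0.783), and without mouse 7 it was 0.32. Mxd1 and the summed mature neutrophil genes were both highest in mouse 7, next in mouse 5, and lowest in mouse 23 and then mouse 8. Mice 19 and 24 came in opposite order, with more Mxd1 in mouse 24 and more of the neutrophil genes in mouse 19. The part of the mature neutrophil genes in the Mxd1 values was not tested.

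Mxd3, the MXD gene that is expressed in dividing cells, was at 13.7, 7.66 and 10.0 CPM in the Tet2+/+ mice and at 24, 20.3 and 11.1 CPM in the Tet2-/- mice. Mouse 8 lay between the Tet2+/+ mice, and the log2 fold change of 0.82 ± 0.36 (SE, n = 3 per genotype, 95% interval -0.02 to 1.66) had an unadjusted p of 0.0553 and an adjusted p of 0.628 by edgeR. The 3′ end of Mxd3 overlaps Prelid1 on the other strand over 105 bases, and Prelid1 took 2115 to 11885 reads a library, so that reads from the shared bases of this unstranded library could not be told apart. Prelid1 was at 189.5, 185 and 149 CPM in the Tet2+/+ mice and at 376, 222 and 261 CPM in the Tet2-/- mice, higher in each Tet2-/- mouse than in any Tet2+/+ mouse, and its part in the Mxd3 values was not tested. Mxd4, an MXD gene of resting and differentiating cells, was at 101, 149 and 142 CPM in the Tet2+/+ mice and at 81.0, 116 and 132 CPM in the Tet2-/- mice. The ranges overlapped (log2 fold change -0.25 ± 0.24, SE, n = 3 per genotype, edgeR's adjusted p = 0.832). Mnt, the widely expressed MAX partner that restrains MYC, was the steadiest member, at 41.1, 52.5 and 46.9 CPM in the Tet2+/+ mice and at 50.5, 38.4 and 45.8 CPM in the Tet2-/- mice. Its log2 fold change of -0.06 ± 0.18 (SE, 95% interval -0.48 to 0.36) had the narrowest interval of the 10.

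Mlx was the single member whose genotypes did not overlap, at 51.6, 34.7 and 36.1 CPM in the Tet2+/+ mice and at 52.4, 70.7 and 55.5 CPM in the Tet2-/- mice. Mouse 19 and mouse 5 nearly met. Of all genes tested, 14.4% had genotypes that did not overlap and 6.41% were higher in that way. The log2 fold change was 0.54 ± 0.22 (SE, n = 3 per genotype, 95% interval 0.03 to 1.06), with an unadjusted edgeR p of 0.0410, an adjusted p of 0.604 and an exact two-sided permutation p of 0.10, the smallest that 3 against 3 mice allow. The estimate stayed between 0.40 and 0.74 with any 1 mouse left out, and the unadjusted p was over 0.05 without mouse 23, 24, 7 or 8. Of the 31-base words in the Mlx transcripts, 17.1% were also in Psmc3ip, which overlaps the 3′ end of Mlx on the other strand. Psmc3ip was at 11.3, 9.05 and 7.39 CPM in the Tet2+/+ mice and at 14.0, 10.0 and 13.5 CPM in the Tet2-/- mice, and its part in the Mlx values was not tested.

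**Figure D2:**
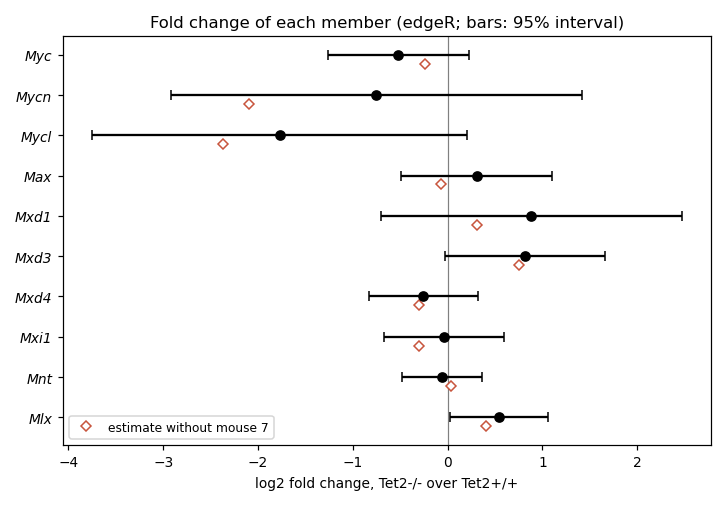
Log2 fold change of each member, Cebpa-/p30 Tet2-/- over Cebpa-/p30 Tet2+/+, as edgeR estimated it from 3 mice a group, with 95% intervals as bars and the estimate without mouse 7 as open diamonds. The interval excludes 0 for Mlx alone, from 0.03 to 1.06, and the estimate for Max falls from 0.31 to -0.07 when mouse 7 is left out.

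Mxi1 as a whole showed no difference beyond the spread, at 120.2, 82.0 and 115 CPM in the Tet2+/+ mice and at 97.3, 138 and 73.9 CPM in the Tet2-/- mice (log2 fold change -0.04 ± 0.27, SE, 95% interval -0.67 to 0.59, edgeR's adjusted p = 0.984), but the estimates of its transcripts ran in both directions. Mxi1-202, the form without the first coding bases of Mxi1-203 and thus without its capitals above, was at 4.84, 6.72 and 5.02 TPM (a share of all transcript molecules, scaled for length) in the Tet2+/+ mice and at 2.78, 1.72 and 2.53 TPM in the Tet2-/- mice. All 3 Tet2-/- mice lay under all 3 Tet2+/+ mice. Its log2 fold change was -1.15 ± 0.25 (SE, n = 3 per genotype, 95% interval -1.76 to -0.53, unadjusted p = 0.00359 and adjusted p = 0.606 by edgeR over 66893 transcripts), and -1.33 to -0.97 with any 1 mouse left out. Mxi1-203, the form with them, was at 5.14, 1.59 and 4.08 TPM in the Tet2+/+ mice and at 2.99, 3.90 and 2.96 TPM in the Tet2-/- mice, with no difference beyond the spread (log2 fold change -0.09 ± 0.46, SE). Mxi1-201, from the upstream first exon, was at 4.01, 2.36 and 5.61 TPM in the Tet2+/+ mice and at 5.12, 9.82 and 3.41 TPM in the Tet2-/- mice (log2 fold change 0.70 ± 0.49, SE).

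As a share of the TPM of Mxi1, Mxi1-202 was at 34.6%, 63.0% and 34.1% in the Tet2+/+ mice and at 25.5%, 11.1% and 28.4% in the Tet2-/- mice. The share of Mxi1-201 was at 28.7%, 22.1% and 38.1% in the Tet2+/+ mice and at 47.0%, 63.6% and 38.3% in the Tet2-/- mice. Neither share overlapped between genotypes (exact two-sided permutation p = 0.10 for each), although mice 24 and 8 lay 0.2 percentage points apart for Mxi1-201. Mouse 7, with the highest mature neutrophil genes, and mouse 23, with the lowest, held the extreme shares of both forms, and the part of the mature neutrophil genes in these shares was not tested. The forms share 576 coding bases at the 3′ end and also end at different places, the last base of Mxi1-202 being at chr19:53375810 and that of Mxi1-203 at chr19:53373154. The split of reads between them rests on the bases at both ends that they do not share.

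Over the 10 members the files held 47 transcripts, of which 39 were tested and 28 carried at least 10% of their gene's TPM. None was called at the adjusted threshold, as for all 66893 transcripts. At an unadjusted p under 0.05 there was 1 lower (Mxi1-202) and 1 higher (Mlx-202, log2 fold change 0.65 ± 0.26, SE, edgeR's adjusted p = 0.846), against 5.28% of all transcripts. Of the main transcripts, the share of the gene's TPM did not overlap between genotypes for 3, lower for Mxi1-202 and Myc-203 and higher for Mxi1-201, against 10.9% of the main transcripts of all tested genes. Myc-203 is an incomplete form of 381 bases with 12 to 60 reads a library. Its level did not overlap either, at 8.21, 12.2 and 8.70 TPM in the Tet2+/+ mice and at 5.36, 2.63 and 4.12 TPM in the Tet2-/- mice (log2 fold change -1.08 ± 0.47, SE, edgeR's adjusted p = 0.846). The forms of Myc that start at the CTG, Myc-201 and Myc-206, were at 3.45 to 9.83 TPM and 4.48 to 11.3 TPM over the 6 mice, and Myc-204, which starts at the ATG, was at 9.79, 17.8 and 14.0 TPM in the Tet2+/+ mice and at 9.81, 5.12 and 7.65 TPM in the Tet2-/- mice. The Myc-204 ranges touched only at mouse 5 and mouse 19 (log2 fold change -0.75 ± 0.32, SE, n = 3 per genotype, edgeR's adjusted p = 0.846).

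**Figure D3:**
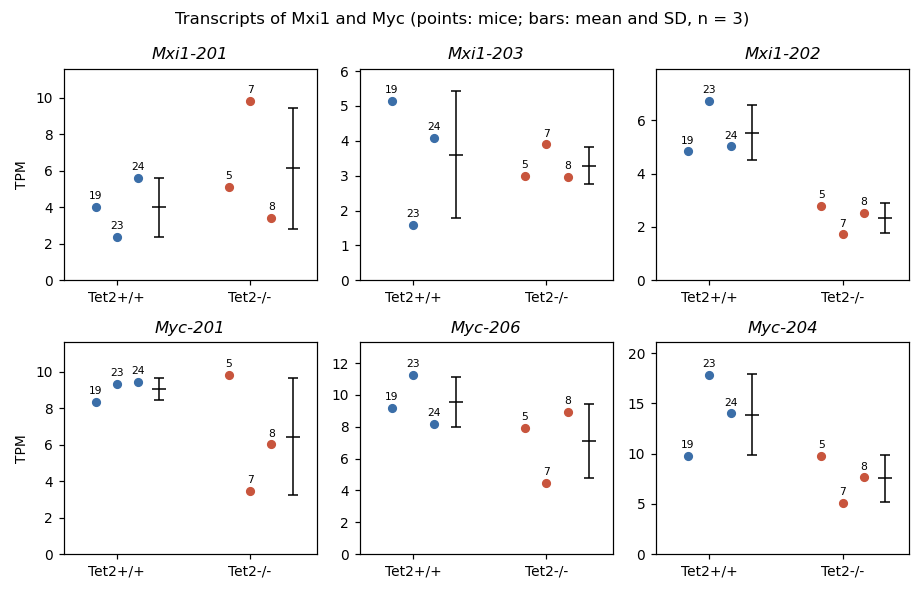
TPM of 3 transcripts of Mxi1 and 3 of Myc in each mouse (blue, Cebpa-/p30 Tet2+/+; red, Cebpa-/p30 Tet2-/-), with the mean and SD of 3 mice as black bars. All Tet2-/- mice, at 1.72 to 2.78 TPM, lie under all Tet2+/+ mice, at 4.84 to 6.72 TPM, for Mxi1-202 and in no other panel. Myc-203, a short form whose TPM did not overlap between genotypes either, is not shown.

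Levels of different members can be compared only per length, and here the scale is CPM per kb of the longest coding transcript. The order was Mxd1 with a mean over 6 mice of 90, Max 65, Myc 46.8, Mxd4 31, Mlx 25.5, Mxi1 20.3, Mxd3 10.9, Mnt 9.99, Mycl 1.12 and Mycn 0.108. The first 3 overlapped over the mice, from 29.8 to 193 for Mxd1, 41.5 to 105 for Max and 22.3 to 65.4 for Myc, and so did Mxd4, Mlx and Mxi1, which lay between 14.3 and 38.6. Mxd3 and Mnt overlapped in the same way, between 5.77 and 18.1. Mycl was above Mycn in each mouse. Summed TPM ranked Max first at 171 TPM on average, but 59.6% of that was Max-206, an annotated fragment of 203 bases with 17 to 65 reads a library.

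The balance of repressors over MYC genes overlapped between genotypes. The summed level of the 4 MXD genes and Mnt was 2.45, 1.53 and 3.41 times that of the 3 MYC genes in the Tet2+/+ mice, and 3.64, 11.7 and 2.43 times in the Tet2-/- mice, on the scale per kb of coding transcript. Mouse 7 stood apart, with the most Mxd1 and the least Myc, and mouse 8 lay within the Tet2+/+ range. Of the repressor sum, Mxd1 alone made up 47.3%, 29.3% and 56.2% in the Tet2+/+ mice against 64.7%, 70.6% and 31.7% in the Tet2-/- mice.

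Across 12 lists of partners and targets, 103 genes were tested, none was called by edgeR (smallest adjusted p = 0.333), and 2 were lower and 10 higher at an unadjusted p under 0.05. That is 11.7% of the list genes beside 8.11% of all genes, of which 5.12% were lower and 3% higher in that way. DESeq2 called 3 of them, all higher (Mthfd2, Pkm and E2f2), beside 2.16% of all genes. The median log2 fold change was 0.54 for the glucose and glutamine genes and 0.59 for genes that MYC represses, whereas those of ribosome biogenesis (-0.05) and nucleotide synthesis (0.07) lay close to 0.00, the median of all genes.

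Of the 3 further network genes, Mlxipl, the glucose-sensing partner of MLX, was at 0.0598, 0.428 and 0.141 CPM in the Tet2+/+ mice against 2.15, 0.643 and 1.03 CPM in the Tet2-/- mice, a log2 fold change of 2.55 ± 0.80 (SE, unadjusted p = 0.0146 and adjusted p = 0.525 by edgeR) at 1 to 68 reads a library. Mga, which encodes a MAX partner of a repressive Polycomb complex, was at 65.7, 91.7 and 74.9 CPM in the Tet2+/+ mice and at 44.3, 44.2 and 60.2 CPM in the Tet2-/- mice, with no overlap (log2 fold change -0.64 ± 0.20, SE, unadjusted p = 0.0158 and adjusted p = 0.527 by edgeR). Mlxip, the other glucose-sensing partner, was at 0.17 ± 0.15 (SE). The 6 other E-box factors, of the USF, TFE and related families, held none at an unadjusted p under 0.05, with the smallest for Tfeb at a log2 fold change of 0.49 ± 0.22 (SE), Usf2 at 0.29 ± 0.15 and Tfe3 at 0.51 ± 0.31.

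Of the machinery that the network uses, 3 of 29 genes (10.3%) had an unadjusted p under 0.05, near the 8.11% of all genes. Of the 10 MYC co-activator genes none had an unadjusted p under 0.05, the smallest being for Wdr5, a chromatin scaffold that binds MYC, at a log2 fold change of 0.37 ± 0.17 (SE), the acetyltransferase gene Kat5 at 0.27 ± 0.16 and Trrap at -0.22 ± 0.16. Of the 8 co-repressor genes, 1 was higher at an unadjusted p under 0.05, Sap30 of the SIN3 complex, at 17.8, 19.2 and 18.4 CPM in the Tet2+/+ mice and 28.4, 21.5 and 30.9 CPM in the Tet2-/- mice (log2 fold change 0.55 ± 0.20, SE, edgeR's adjusted p = 0.591). The deacetylase gene Hdac1 was at 0.18 ± 0.15. Of the 11 genes of MYC protein turnover, Aurka, a mitotic kinase that stabilizes MYC proteins, was higher at an unadjusted p under 0.05, with a log2 fold change of 0.65 ± 0.22 (SE, edgeR's adjusted p = 0.561). Usp28, a deubiquitinase that does so too, was lower, at -0.50 ± 0.20 (SE, edgeR's adjusted p = 0.604), and Gsk3a was at 0.35 ± 0.16.

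**Figure D4:**
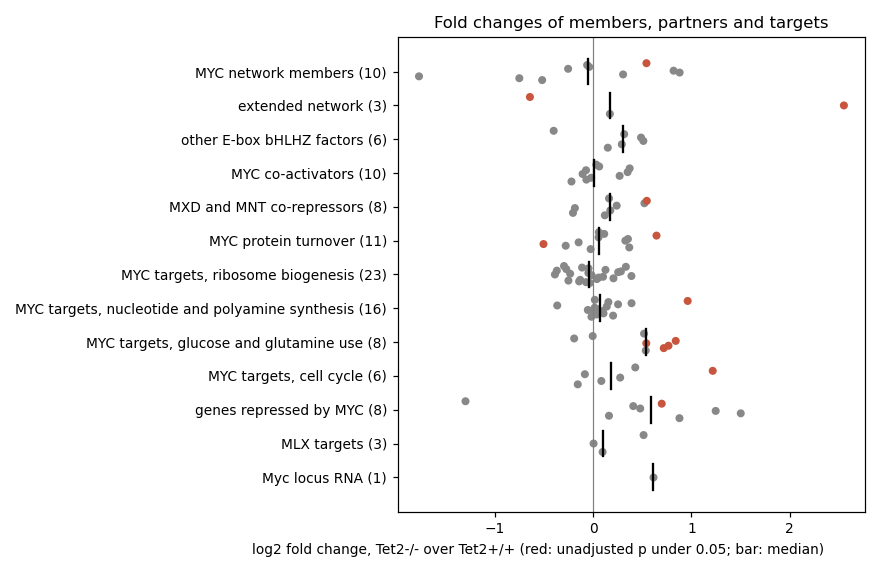
Log2 fold change, Cebpa-/p30 Tet2-/- over Cebpa-/p30 Tet2+/+, of the 10 members and of each gene of the 12 partner and target lists (number tested in parentheses), with red points for an unadjusted edgeR p under 0.05 and black bars for the medians. The glucose and glutamine genes lie mostly right of 0, with a median of 0.54, and the ribosome biogenesis genes lie around 0, with a median of -0.05.

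The MYC target lists differed in their medians. Of the 8 glucose and glutamine genes, 4 were higher at an unadjusted p under 0.05 against 3% of all genes that were higher in that way, and the list's median log2 fold change was 0.54 beside 0.00 for all genes. The count rested on single mice, and was 0 without mouse 24, 1 without mouse 23, 2 without mouse 5 or mouse 8, 4 without mouse 19 and 6 without mouse 7. In these fits the share of all genes higher in that way ran from 1.16% without mouse 24 to 4.71% without mouse 7. The list's median ran from 0.41 without mouse 24 to 0.74 without mouse 19. Hk2, the first enzyme of glycolysis, was at 92.8, 84.1 and 68.6 CPM in the Tet2+/+ mice and at 118, 123 and 116 CPM in the Tet2-/- mice (0.54 ± 0.17, SE, edgeR's adjusted p = 0.510). Pkm, which encodes pyruvate kinase, was at 1877, 1472 and 1300 CPM in the Tet2+/+ mice and at 2566, 2642 and 2706 CPM in the Tet2-/- mice (0.77 ± 0.24, SE, adjusted p = 0.527 by edgeR, 0.0169 by DESeq2 and 0.0773 by DESeq2 on length-scaled counts). Eno1, the gene of enolase, had a log2 fold change of 0.72 ± 0.26 (SE), and Slc2a1, the glucose transporter gene, had 0.84 ± 0.35. Slc1a5, a glutamine transporter gene, was at 0.00 ± 0.30.

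Of the 16 genes for nucleotide and polyamine synthesis, 1 was higher at an unadjusted p under 0.05. This was Mthfd2, the mitochondrial enzyme of one-carbon metabolism, at 37.5, 32.4 and 22 CPM in the Tet2+/+ mice and 70.5, 50.9 and 58.0 CPM in the Tet2-/- mice (log2 fold change 0.96 ± 0.24, SE, unadjusted p = 0.00511 and adjusted p = 0.396 by edgeR, adjusted p = 0.0329 by DESeq2). The next smallest p-values were those of Prps2 at -0.36 ± 0.29 and Shmt2 at 0.39 ± 0.40 (SE). Of the 6 cell cycle targets, E2f2, an activating E2F gene, was at 173, 104 and 105 CPM in the Tet2+/+ mice and 274, 381 and 235 CPM in the Tet2-/- mice (log2 fold change 1.22 ± 0.29, SE, unadjusted p = 0.00364 and adjusted p = 0.333 by edgeR, adjusted p = 0.0167 by DESeq2). Cks1b and Cdc25a were at 0.43 ± 0.20 and 0.28 ± 0.25.

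Of the 23 ribosome biogenesis genes none had an unadjusted p under 0.05, 14 estimates were lower and 9 higher, and the range was -0.39 for Wdr12 to 0.39 for Bop1, with Polr1b at -0.37. Genes that MYC represses had a median of 0.59, which ran from 0.37 without mouse 7 to 0.89 without mouse 23 when 1 mouse was left out. With all mice, 7 of 8 estimates were higher and 1 had an unadjusted p under 0.05, Ndrg1, a differentiation and hypoxia gene. Ndrg1 was at 86.1, 122 and 80.4 CPM in the Tet2+/+ mice and 155, 130.0 and 184 CPM in the Tet2-/- mice (log2 fold change 0.70 ± 0.22, SE, edgeR's adjusted p = 0.539). Cdkn1a, the p21 cell cycle inhibitor gene, was at 0.88 ± 0.56 and Cdkn2b at 1.25 ± 1.0 with no more than 24 reads. Of the 3 MLX targets, the arrestin gene Txnip, whose RNA follows glucose through MLX and its partners, was at 587, 563 and 738 CPM in the Tet2+/+ mice and 514, 948 and 557 CPM in the Tet2-/- mice (0.10 ± 0.29, SE). Klf10 was at 0.51 ± 0.29 and Arrdc4 at 0.01 ± 1.27, so that none of the 3 passed the test.

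The ribosome and nucleotide genes were low in mouse 7, as Myc was. In that mouse 20 of the 23 ribosome biogenesis genes and 13 of the 16 nucleotide and polyamine genes had their lowest level of the 6 mice, with a median ratio of 0.450 and 0.503 to the mean of the other mice, beside 0.906 for all genes. Among the 9175 genes that averaged 10 CPM or more, 30.4% had their lowest level in mouse 7. Nucleolin (Ncl) was at 337 CPM in mouse 7 and on average at 589 CPM in the Tet2+/+ mice, and Npm1, another nucleolar gene, at 176 and 452 CPM. Mouse 7 was also the highest for all 10 mature neutrophil genes, for Mxd1 and for Max. Of the 8 monocyte and macrophage genes 5 were at their lowest in mouse 7, with a median ratio of 0.310 to the other mice, and so were 5 of 7 plasma cell genes, at 0.264. The part of these markers in its low Myc and target levels was not tested. Without mouse 7 the list medians were 0.23 for ribosome biogenesis, 0.41 for nucleotide and polyamine synthesis and 0.71 for glucose and glutamine use beside -0.01 for all genes, with 5, 7 and 6 genes higher at an unadjusted p under 0.05, against 4.71% of all genes in the same fit, and none called. Leaving out another Tet2-/- mouse moved 2 of these medians the other way. That of ribosome biogenesis went to -0.24 without mouse 5 and -0.25 without mouse 8, with 0 and 2 genes lower at an unadjusted p under 0.05, against 5.54% and 5.11% of all genes. That of nucleotide and polyamine synthesis went to -0.08 and -0.05 in the same fits, whereas that of glucose and glutamine use was 0.46 and 0.56.

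**Figure D5:**
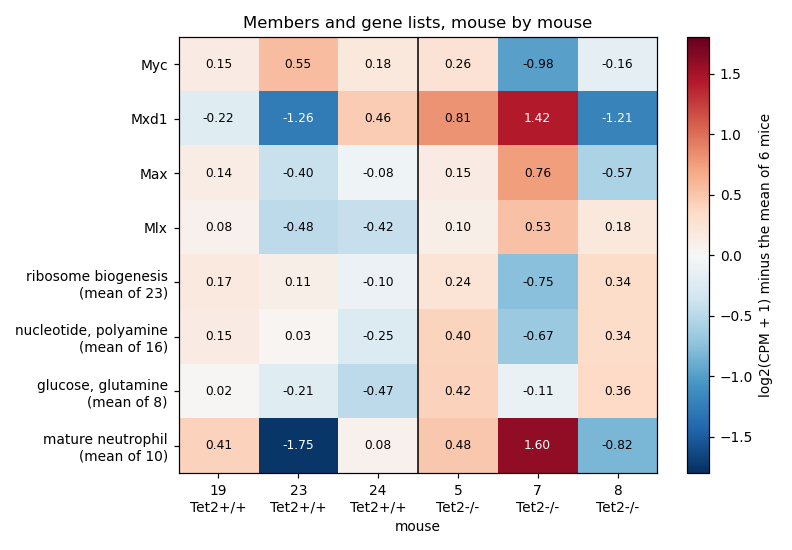
Level of Myc, Mxd1, Max, Mlx and 4 gene lists in each mouse, as log2(CPM + 1) minus the mean over the 6 mice (averaged over the genes of a list), in red above and in blue below that mean. Mouse 7 is at -0.98 for Myc, -0.75 for the ribosome biogenesis genes, 1.42 for Mxd1 and 1.60 for the mature neutrophil genes.

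Finally, the E-box CACGTG, which the network binds and which reads the same on both strands, was searched from 250 bases before to 50 bases after the start sites in RefSeq promoters (GRCm38.p6). There 9 of the 10 members had an entry, and Myc, without one, was not searched. The E-box was in 8.09% of the 27025 genes with a window. In the MYC and MLX target lists, of 2 to 18 genes each, the share was 16.7% to 50%. Among the 9 members it was in 4 (Max, Mxd4, Mnt and Mlx). Of the matches, in capitals, that of Max began 3 bases before the start site and runs across it, at chr12:76962234-76962263 on the minus strand, that of Mxd4 began 219 bases before it, at chr5:34187912-34187941 on the minus strand, that of Mnt 123 bases before it, at chr11:74830789-74830818 on the plus strand, and that of Mlx 40 bases before it, at chr11:101087238-101087267 on the plus strand. A match describes the letters in the window and is not evidence of binding in these cells.
Max promoter: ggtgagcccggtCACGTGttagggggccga
Mxd4 promoter: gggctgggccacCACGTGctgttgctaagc
Mnt promoter: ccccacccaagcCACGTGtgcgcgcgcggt
Mlx promoter: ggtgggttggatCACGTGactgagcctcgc
The 4 genes with a match did not share a direction between genotypes, with log2 fold changes of 0.31 for Max, -0.25 for Mxd4, -0.06 for Mnt and 0.54 for Mlx.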

How the data were processed

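The authors made TruSeq v2 libraries, which do not mark strand, sequenced them on a NextSeq 500 and quantified transcripts with Salmon 0.12.0 (per the labels; mm10, Ensembl 94), 1 file per mouse. The deposited files give estimated counts and TPM per transcript. Here the estimated counts were summed per gene with GENCODE M21 and rounded, leaving out 112 of 136288 transcripts without a gene there. Genes with normalized counts summing to at least 10 were tested with edgeR 4.0.16 (R 4.3.3, TMM, quasi-likelihood, Benjamini-Hochberg adjustment over all 22170 genes, threshold 0.05, biological coefficient of variation 43.6%), and 66893 transcripts likewise. DESeq2 1.42.0 also on length-scaled counts, limma, other scalings and filters and leaving out each mouse were alternatives. The test was tried on simulated counts. The levels per kb of the longest coding transcript were added after seeing the data.

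Members and gene lists were chosen with earlier results of these data known. Named are the members, Tet2 and, of each partner or target list, the 3 genes with the smallest unadjusted p and any gene past the threshold (some are not reported here), as well as transcripts with at least 10% of a member's TPM; others were chosen after their values were seen (Slc2a1, Slc1a5, Ncl, Npm1, Max-202, and genes that share bases with a member). Cebpa, also on the list to name, was at 140, 194 and 287 CPM in mice 19, 23 and 24 and at 158, 75.7 and 124 CPM in mice 5, 7 and 8.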

Additional observations from a re-analysis of the deposited data

How the results depend on the processing

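Of 139 log2 fold changes of members over 14 alternatives, 133 kept their direction and none passed the adjusted threshold (smallest adjusted p 0.364). With 1 mouse left out, the estimate for Max ran from -0.070 (without mouse 7) to 0.58, that for Mxi1 from -0.30 to 0.15 (above 0 without mouse 19, 24 or 8) and that for Mnt from -0.16 to 0.039 (above 0 without mouse 23 or 7), and the cause was not tested. Scaling by library size alone moved the median of all genes by -0.17 and turned no member. All genes called were 326 lower and 59 higher with DESeq2, 322 and 64 with DESeq2 on length-scaled counts, 62 and 4 with no filter on low counts, 5 lower with edgeR on length-scaled counts, and 1 higher with RLE factors and with edgeR's expression filter, against 10 and 0. Members at an unadjusted p under 0.05 were 3 with DESeq2, 3 with no filter and 0 with edgeR on length-scaled counts. List genes called higher were 3 with DESeq2 and 2 on length-scaled counts, without Pkm, and list genes at an unadjusted p under 0.05 were 7 with library sizes alone. Leaving out 1 mouse gave 0 to 7 genes called lower, 0 to 2 members and 3 to 28 list genes at an unadjusted p under 0.05, the 28 without mouse 7. No paired analysis was possible because the mice of the genotypes share no replicate number.

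With 3 mice a group, changes of 1 on the log2 scale were mostly not detectable, and at 1 to 8 reads nothing can be said of Mycn. The order of members by level depends on the length used: Max came before Mxd1 and Mlx before Myc by summed TPM, and Mxd1, Max and Myc led in this order on both other scales. The reads of Mxd3, Mxd4, Mxi1 and Mlx are partly shared with overlapping genes.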
